A study of Mus musculus with 2 samples.

Results

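Mir675, Mir483, Mir335, Mir298 and Mir296 are miRNA genes of imprinted growth loci, those of H19, Igf2, Mest and the Gnas region. They were taken by gene symbol, as 5 of the 2202 miRNA genes counted, and all 5 were found in both libraries. The material was adrenal gland of male B6CASTF1/J mice, a first-generation cross of C57BL/6 with CAST/EiJ, at 10 days of age and with no treatment named. The series held 1 group of 2 libraries of short RNA, numbered as biological replicates 1 and 2 and taken from different males under a shared donor record. With no second condition, levels are described and replicate 2 is set against replicate 1. Whether glands were pooled, and whether left and right glands were used, is not stated.

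Imprinted genes are expressed mainly from the copy inherited from one parent. In mouse, H19 is a maternally expressed long non-coding RNA, and its neighbour Igf2, which encodes a fetal growth factor, is paternally expressed. Mest, a paternally expressed gene for a hydrolase-like protein, is a further locus with effects on growth. At the Gnas locus, which encodes a stimulatory G protein subunit on which the response of the adrenal cortex to ACTH depends, Nespas is a paternally expressed antisense transcript, and Mir296 and Mir298 have been described as paternally expressed with it. These classes are background: the counts do not separate the C57BL/6 from the CAST/EiJ copy, so no allele was measured.

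The hairpins lie in or near these host genes on the same strand, in mm10 coordinates. Mir675 (ENSMUSG00000076275.1) lies on chromosome 7 from 142577064 to 142577147 and overlaps an exon in 3 of the 7 annotated H19 transcripts and an intron in 1. Mir483 (ENSMUSG00000070140.1) lies 77776 bases further along the same chromosome, spans 142654924 to 142654996 and is intronic in 7 of the 9 Igf2 transcripts. It is also intronic in Gm49394, a protein-coding gene annotated on the same strand across this place. Mir335 (ENSMUSG00000065501.1) spans 30741299 to 30741396 of chromosome 6 and is intronic in 7 of the 11 Mest transcripts. Mir298 (ENSMUSG00000065410.1), on chromosome 2 from 174267504 to 174267585, and Mir296 (ENSMUSG00000065521.1), from 174267047 to 174267125, are 378 bases apart. Neither lies inside an annotated gene in GENCODE M21. Both are on the strand of Nespas, and Mir298 lies 13651 bases beyond its annotated 3′ end.

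**Figure D1:**
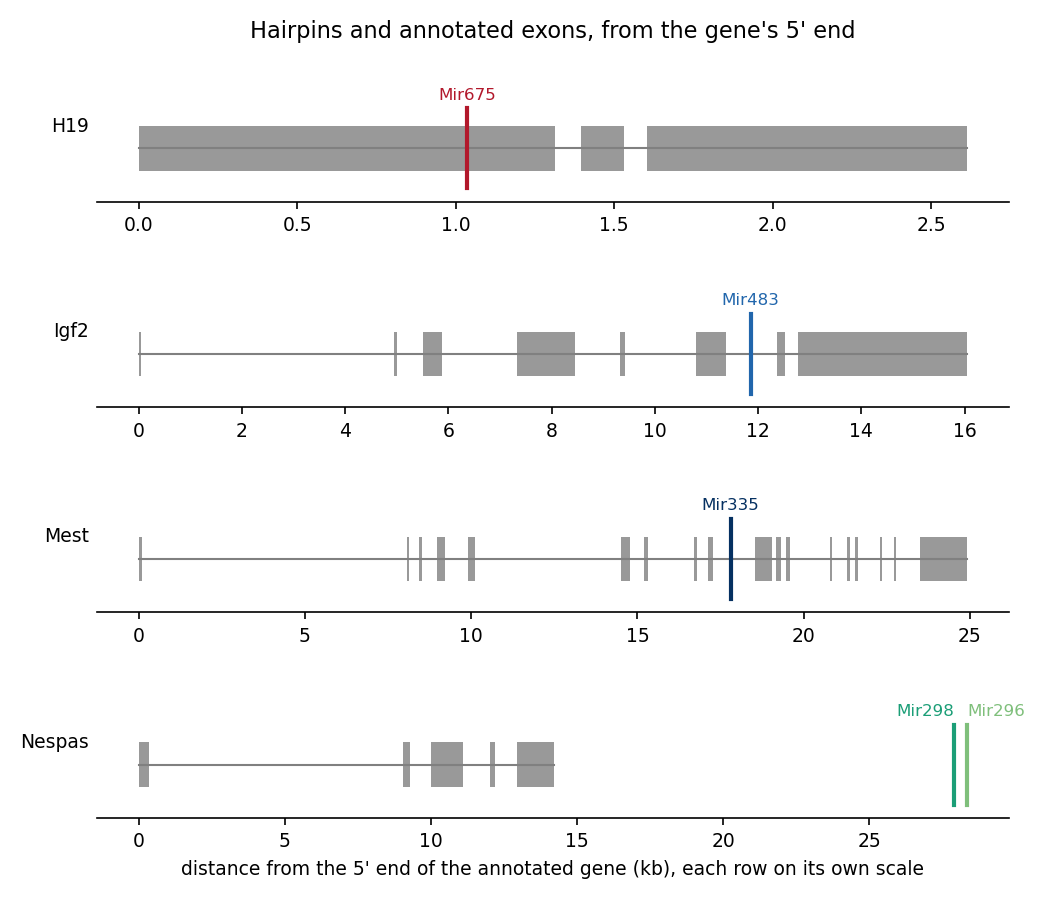
Place of the 5 hairpins (coloured lines) beside the annotated exons (grey boxes, all transcripts merged) of H19, Igf2, Mest and Nespas, as distance in kb from the 5′ end of the annotated gene, with a separate scale per row. Mir675 falls on an exon, Mir483 and Mir335 between exons, and Mir298 and Mir296 13651 and 14111 bases past the end of Nespas.

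Each hairpin gives a 5p and a 3p mature miRNA, and the seed, bases 2 to 8 from the 5′ end, is the part that mainly pairs with target mRNAs. All 10 mature sequences are shown because their seeds set which targets each gene could share with the others; they are from RefSeq (GRCm38.p6), with the seed in capitals.
miR-675-5p: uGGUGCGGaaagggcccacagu
miR-675-3p: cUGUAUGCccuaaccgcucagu
miR-483-5p: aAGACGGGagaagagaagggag
miR-483-3p: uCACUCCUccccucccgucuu
miR-335-5p: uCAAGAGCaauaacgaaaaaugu
miR-335-3p: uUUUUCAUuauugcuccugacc
miR-298-5p: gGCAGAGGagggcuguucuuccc
miR-298-3p: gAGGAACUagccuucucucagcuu
miR-296-5p: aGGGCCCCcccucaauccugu
miR-296-3p: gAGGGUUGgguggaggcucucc

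The 10 seeds were all different, and 0 of them occurred as the seed of a mature miRNA from another gene among the 1738 mature sequences of the RefSeq table, where 32.0% of mature sequences share their seed with another gene. The 2 arms that carry the fewest G and C bases were both from Mir335, miR-335-5p with 30.4% and miR-335-3p with 36.4%. The 8 arms of the other genes held between 50.0% and 68.2%. The Mir335 hairpin had 42.9% G and C, below the median of 51.7% over 1005 hairpins, and the Mir675 and Mir296 hairpins had 63.1% and 63.3%. The longest run of bases that a hairpin shared with any other hairpin in the table, on either strand, was 13 for Mir483, 12 for Mir335, Mir298 and Mir296, and 11 for Mir675. None reached the length of a mature miRNA, which was 21 to 24 bases for these genes.

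The Mir298 and Mir296 hairpins are shown whole because these neighbours differed in how they changed between the libraries. Capitals mark the mature arms, 5p before 3p.
Mir298: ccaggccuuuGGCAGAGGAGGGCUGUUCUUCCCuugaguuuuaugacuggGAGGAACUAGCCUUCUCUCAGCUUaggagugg
Mir296: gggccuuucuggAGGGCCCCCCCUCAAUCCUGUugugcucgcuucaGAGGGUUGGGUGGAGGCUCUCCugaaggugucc

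These 2 hairpins share no run longer than 7 bases. The counts are per gene, so they do not tell the 5p arm from the 3p arm.

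Replicate 2 held 3080062 reads assigned to miRNA genes on their own strand and replicate 1 held 2843734, and levels are given as CPM, each count divided by this number and brought to one shared scale. Taking 3 counts as the limit that a count of 0 allows, the floor was 0.974 CPM for replicate 2 and 1.05 for replicate 1. All 5 genes lay above this floor in both libraries, and 441 of the 2202 genes had at least 1 CPM in both. No miRNA marks the adrenal gland alone, and the markers checked were those of its likely cell types and neighbours. The neuroendocrine miRNA Mir375, known from chromaffin cells of the medulla, had 34383 CPM in replicate 2 and 34145 CPM in replicate 1. The other neuroendocrine markers were lower in replicate 2, Mir7b with 3120 CPM in replicate 2 and 5272 CPM in replicate 1, and Mir7-1 with 244 CPM in replicate 2 and 390 CPM in replicate 1. The 3 markers of adrenocortical hormone response summed to 14544.5 CPM in replicate 2, against 7575 CPM in replicate 1. Most of that sum was Mir21a, at 13582 CPM in replicate 2 and 6869 CPM in replicate 1, whereas Mir212 had 29.5 CPM in replicate 2 and 59.1 CPM in replicate 1. The 4 markers of smooth muscle and fibroblasts summed to 34044 CPM in replicate 2, against 40273.5 CPM in replicate 1. Most of that sum was Mir143, at 30258 CPM in replicate 2 and 37387.5 CPM in replicate 1. Mir145a, with 1697 CPM in replicate 2 and 1203 CPM in replicate 1, and Mir214, with 2088 and 1683 CPM, went the other way. Mir199a-1 had 0 counts. The hepatocyte miRNA Mir122, the 1 marker of its list, had 97850.0 CPM in replicate 2 and 29424 CPM in replicate 1. The 4 muscle markers summed to 3305 CPM in replicate 2, against 919 CPM in replicate 1, and all but Mir206 had at most 1 count in a library. The endothelial marker Mir126a went the other way, with 45249.7 CPM in replicate 2 and 84262 CPM in replicate 1. The 3 blood markers together had 1388 CPM in replicate 2 and 1249 CPM in replicate 1, but the red cell miRNA Mir451a had 234 CPM in replicate 2 and 567 CPM in replicate 1, and the lymphocyte miRNA Mir150 had 786 CPM in replicate 2 and 292 CPM in replicate 1. The pancreatic Mir217 had 2.92 CPM in replicate 2 and 1.76 CPM in replicate 1. Of the 3 neuronal markers Mir137 had 457 CPM in replicate 2 and 765 CPM in replicate 1, and Mir124a-1 and Mir9-1 had 0 counts. Multiply mapped reads count for no gene, so miRNAs with identical copies elsewhere in the genome can be counted too low, and a count of 0 does not show that such a miRNA is absent.

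The 5 genes spanned more than 3 orders of magnitude. Mir335 was the highest at 20025 ± 6103 CPM (SD, n = 2), rank 15 of the 2202 genes by mean. Mir298 followed at 3549 ± 3427 CPM, rank 46. Mir483 had 817 ± 541 CPM and Mir296 had 716 ± 28.6 CPM, ranks 102 and 110. Mir675 was the lowest at 11.8 ± 1.72 CPM, rank 301. In this order the lower library of Mir335 stood above both libraries of Mir298, and both libraries of Mir296 stood above both of Mir675. Between Mir298 and Mir483, and between Mir483 and Mir296, the difference in mean was smaller than the larger of the SDs. Within each library Mir298 still stood above Mir483, 4.98-fold in replicate 2 and 2.59-fold in replicate 1. In replicate 1 Mir483 was below Mir296. Mature lengths were alike, so counts were not divided by length, but adapter ligation favours some small RNA sequences over others, and ratios between genes need not be molar ratios.

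**Figure D2:**
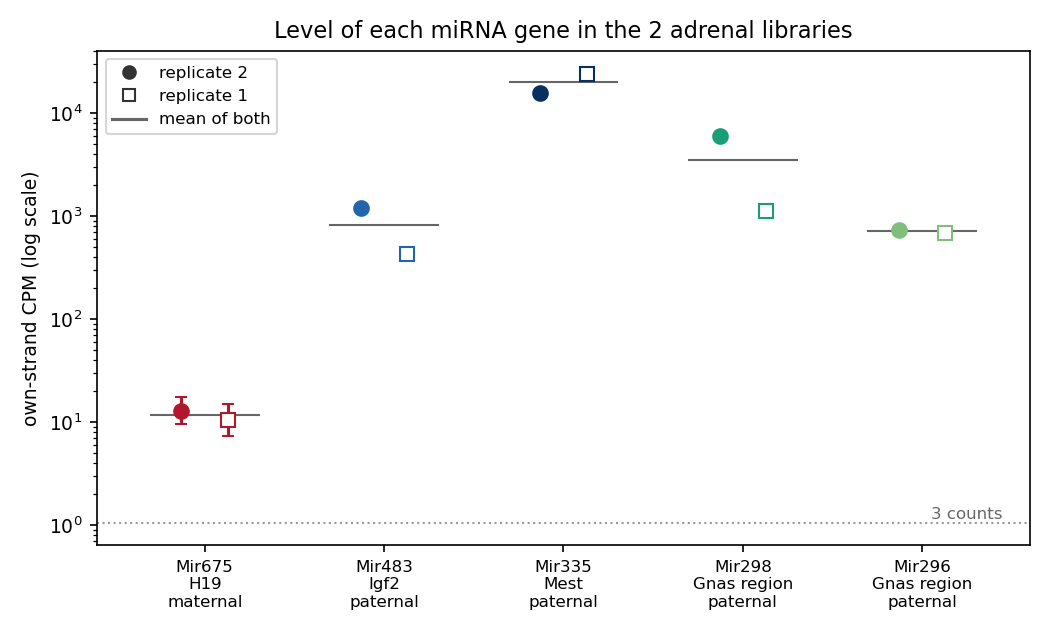
Own-strand CPM (log axis) of each miRNA gene in replicate 2 (filled circles) and replicate 1 (open squares), with 95% Wilson intervals for counting error and the mean of both libraries as a line. Mir335 is the highest in both libraries and Mir675 the lowest, at 13.0 CPM in replicate 2 and 10.5 CPM in replicate 1, and Mir298 has the widest gap between libraries.

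At the H19 locus, Mir675, the maternally expressed member, is cut from the H19 transcript itself and in mouse placenta is known to limit growth. It had 40 counts in replicate 2, or 13.0 CPM (95% Wilson interval 9.54 to 17.7), and 30 counts in replicate 1, or 10.5 CPM (7.39 to 15.1). The intervals overlap widely, and the log2 ratio of replicate 2 over replicate 1 was 0.29 (95% interval -0.42 to 1.03). Intervals here and below cover counting error only, since each is computed from read counts taken as independent. The reads carry no molecular identifiers, so repeated reads of the same molecule could not be told apart. The genes closest to Mir675 in level over the 2 libraries, by distance on the scale of log2(CPM + 1), were Mir325 with 14.6 CPM in replicate 2 and 9.85 CPM in replicate 1 and Mir219a-1 with 11.7 CPM in replicate 2 and 11.6 CPM in replicate 1.

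At Igf2, Mir483, which shares the transcription unit of the growth factor, had 3694 counts in replicate 2 and 1235 in replicate 1. The level was 1199 CPM (1161 to 1239) in replicate 2 and 434 CPM (411 to 459) in replicate 1, so the libraries lay apart by more than counting error. The ratio was 2.76-fold (2.59 to 2.95), or 1.47 on the log2 scale. Mir1839, at 948 CPM in replicate 2 and 346 CPM in replicate 1, and Mir31, at 1476 CPM in replicate 2 and 327 CPM in replicate 1, were closest to it in level.

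Both genes of the H19 and Igf2 domain could be compared within each library. There was 0.0108 of a Mir675 count per Mir483 count in replicate 2 (exact 95% interval 0.00772 to 0.0148) and 0.0243 in replicate 1 (0.0163 to 0.0349). Put the other way, Mir483 exceeded Mir675 by 92.3-fold in replicate 2 and by 41.2-fold in replicate 1. The intervals of the 2 libraries do not overlap, and the Mir675 side of this ratio rests on 40 counts in replicate 2 and 30 in replicate 1. Mir483 thus led in both libraries, by a margin that differed between them.

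At Mest, Mir335, a miRNA studied in human breast cancer as a suppressor of metastasis, had 48387 counts in replicate 2 and 69217 in replicate 1. Its level was 15709.7 CPM (15571 to 15849) in replicate 2 and 24340.2 CPM (24162 to 24520) in replicate 1, and it ranked 17 in replicate 2 and 11 in replicate 1. The log2 ratio was -0.63 (-0.65 to -0.61). The gene closest in level was Mir26b with 16492 CPM in replicate 2 and 23473 CPM in replicate 1. Mir127 of the imprinted Dlk1-Dio3 region came next, at 19269 CPM in replicate 2 and 20667.5 CPM in replicate 1.

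In the Gnas region the neighbouring hairpins differed. Mir298 had 18395 counts in replicate 2 and 3201 in replicate 1, which gave 5972 CPM (5887 to 6059) in replicate 2 and 1126 CPM (1087 to 1165) in replicate 1. It ranked 33 in replicate 2 and 84 in replicate 1. Its ratio was 5.31-fold (5.11 to 5.51), or 2.41 on the log2 scale, and only 2 of the 257 genes that averaged 100 counts or more had a higher one. The genes nearest in level were Mir674, at 4083 CPM in replicate 2 and 1025 CPM in replicate 1, and Mir140, at 8251 CPM in replicate 2 and 1493 CPM in replicate 1.

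Mir296, which in mouse embryonic stem cells targets mRNAs of pluripotency factors, had 2267 counts in replicate 2 and 1978 in replicate 1. At 736 CPM (706 to 767) in replicate 2 and 696 CPM (666 to 727) in replicate 1 it was the steadiest of the 5 genes, with an SD of 4.00% of its mean, against 96.6% for Mir298. Its log2 ratio was 0.08 (-0.01 to 0.17). In level it was closest to Mir16-1, with 724 CPM in replicate 2 and 669.5 CPM in replicate 1, and to Mir467d of the Sfmbt2 intron, with 702 CPM in replicate 2 and 645 CPM in replicate 1.

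Within a library, where totals cancel, there were 8.11 Mir298 counts per Mir296 count in replicate 2 (exact 95% interval 7.77 to 8.48) and 1.62 in replicate 1 (1.53 to 1.71). Mir298 thus exceeded its neighbour in both libraries, and the ratio was 5.01-fold higher in replicate 2. Of the hairpins printed above, both had 0 reads on the opposite strand, as had the other 3 genes, and their counts without regard to strand were identical to those on the own strand.

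**Figure D3:**
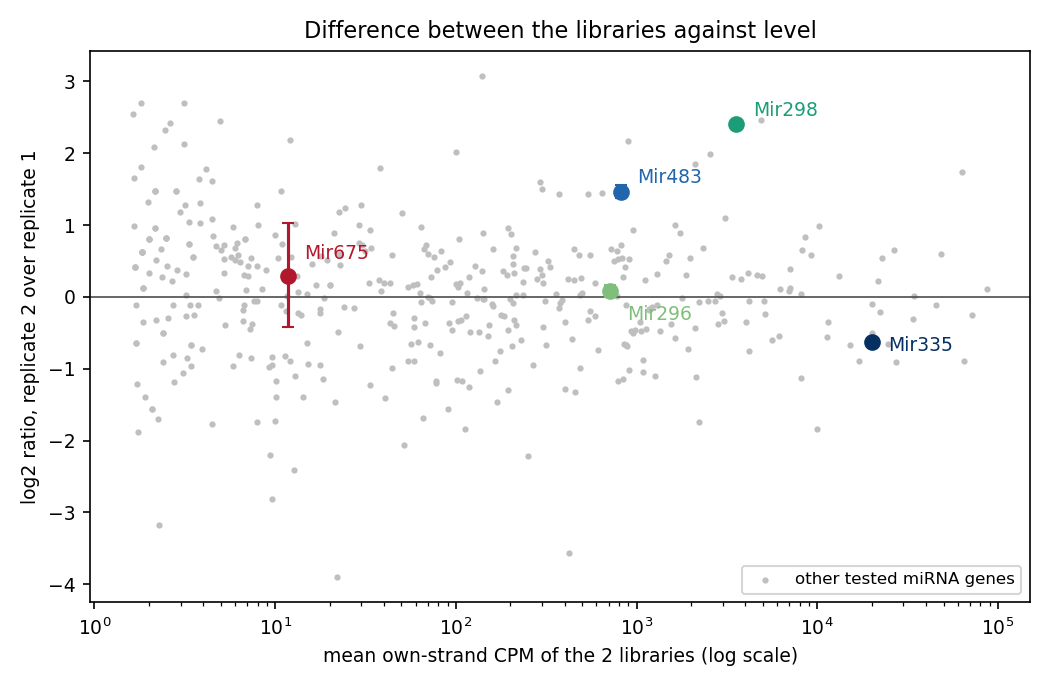
Log2 ratio of replicate 2 over replicate 1 against mean own-strand CPM (log axis) for the 444 tested miRNA genes, with the 5 genes coloured and their exact 95% intervals for counting error. Mir298 (2.41) and Mir483 (1.47) lie in the upper part of the cloud, Mir335 (-0.63) below 0, and Mir296 (0.08) and Mir675 (0.29) near it.

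Replicate 2 was set against replicate 1 gene by gene, by a two-sided exact binomial test adjusted after Benjamini and Hochberg over the 444 genes that had 10 counts or more in the libraries together. It called 59.0% of all tested genes at an adjusted p of 0.05, 28.6% as higher and 30.4% as lower in replicate 2, a balance that turned over when Mir122 was left out of the totals (143 genes higher and 109 lower). Of the 5 genes, all tested, Mir298 and Mir483 were higher and Mir335 lower in replicate 2. So 3 of 5 were called, a share near that of all genes. Mir483 had an adjusted p of 6.6e-239 in the binomial test, and those of Mir298 and Mir335 were too small to be represented. For Mir296 and Mir675 the adjusted p in the binomial test was 0.11 and 0.50. The binomial test sets the difference of 2 libraries against counting error only and compares no conditions. In edgeR's exact negative binomial test, which adds a spread between libraries (coefficient of variation 0.393) estimated from these same 2 libraries and is therefore circular, 0.450% of the genes were called. They were Mir185 and Mir153, named after their values were seen, both lower in replicate 2, and 24 genes had an unadjusted p under 0.05. None of the 5 genes was called there: Mir298 had an adjusted p of 0.46 (unadjusted 0.0052) and the other 4 genes one of 1.0.

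Mir298 and Mir483 were among the 127 genes that the binomial test called higher in replicate 2. So were the markers Mir122, Mir206, Mir21a, Mir132, Mir145a, Mir214 and Mir150. Other markers, Mir7-1, Mir7b, Mir212, Mir143, Mir126a, Mir451a and Mir137, were called lower, some of them from the same lists. The part of liver, muscle or other RNA in the values of Mir298 and Mir483 was not tested. In bulk tissue, a change in the share of a cell type and a change in the RNA per cell cannot be told apart. With Mir122 left out of the totals, the log2 ratio of Mir298 was 2.51, that of Mir483 1.57 and that of Mir335 -0.53. Mir296 passed the binomial threshold in that setting alone, at a log2 ratio of 0.19 and an adjusted p of 6.2e-05. Its adjusted p lay between 0.082 and 1.0 in the other alternatives.

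By parent-of-origin class, the 4 paternally expressed genes held 2.36% of all assigned reads in replicate 2 (Wilson interval 2.34 to 2.38) and 2.66% in replicate 1 (2.64 to 2.68), and Mir675, the maternally expressed gene, held 0.00130% (0.000954 to 0.00177) in replicate 2 and 0.00105% (0.000739 to 0.00151) in replicate 1. There were 1819 paternal-class reads per Mir675 read in replicate 2 (1335 to 2546) and 2521 in replicate 1 (1766 to 3737), with overlapping intervals. With 1 gene against 4, no test over genes was made.

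The sum over the paternal class differed less between libraries than Mir298, Mir483 and Mir335 did, and more than Mir296. Mir335 made up 66.5% of the counts of the 5 genes in replicate 2 and 91.5% in replicate 1. Mir298 made up 25.3% in replicate 2 and 4.23% in replicate 1, and Mir483 made up 5.08% in replicate 2 and 1.63% in replicate 1. Without Mir335, the paternal class held 0.791% of assigned reads in replicate 2 and 0.226% in replicate 1. There were 2.34 Mir335 counts per count of the 2 Gnas region genes in replicate 2 (2.30 to 2.38) and 13.4 in replicate 1 (13.0 to 13.8). Thus Mir335 had more counts than each other paternal-class gene in both libraries. The order below it changed: Mir298, Mir483, Mir296 in replicate 2, and Mir298, Mir296, Mir483 in replicate 1. These are counts of miRNA genes, and the transcripts of the host loci were not measured.

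**Figure D4:**
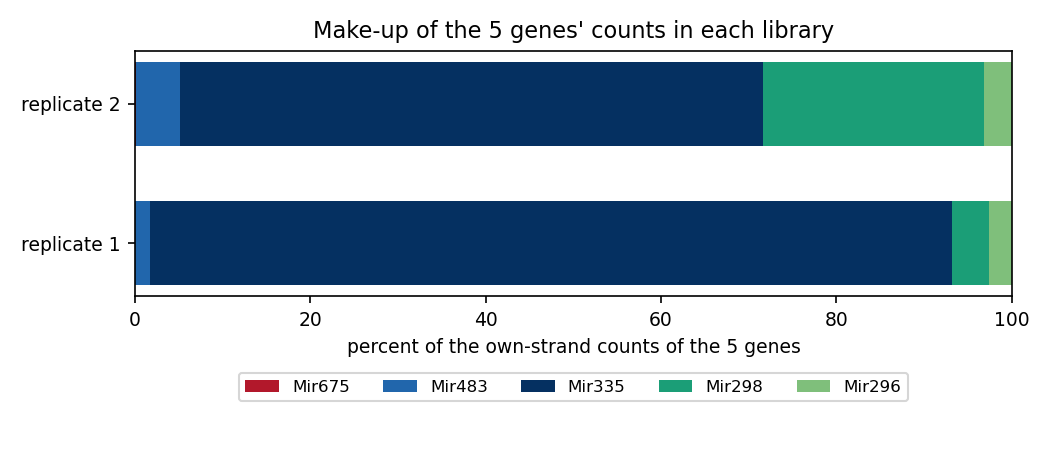
Percent of the own-strand counts of the 5 genes that each gene held in replicate 2 (top bar) and replicate 1 (bottom bar). Mir335 takes 66.5% in replicate 2 and 91.5% in replicate 1, the Mir298 share is 25.3% in replicate 2 and 4.23% in replicate 1, and Mir675, at 0.0550% in replicate 2 and 0.0397% in replicate 1, is too thin to be seen.

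The miRNA genes of other loci described as imprinted were taken by coordinates for comparison. There were 59 on the plus strand between Dlk1 and Dio3, of maternal class, and 119 in Sfmbt2 on its strand, of paternal class. These classes too are background, and whether they hold in adrenal gland at 10 days was not measured. The Dlk1-Dio3 genes held 8.04% of the reads in replicate 2 and 8.16% in replicate 1, and the Sfmbt2 genes 0.136% in replicate 2 and 0.129% in replicate 1. These are sums over many genes and were not ranked against the single genes of H19, Igf2 and Mest. Of the Dlk1-Dio3 genes 50 were detected at 1 CPM in both libraries, led by Mir127 at 19969 ± 989 CPM (SD, n = 2), a level close to that of Mir335. Of the Sfmbt2 genes 8 were detected, led by Mir467d at 674 ± 40.1 CPM, and 107 had 0 counts in both libraries. Multiply mapped reads made up 25.9% of replicate 2 and 27.5% of replicate 1, so the repeated Sfmbt2 hairpins may be counted too low.

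Between the libraries, 45 of 52 tested Dlk1-Dio3 genes were called by the binomial test, 18 higher and 27 lower in replicate 2. That is 86.5%, against 59.0% of all tested genes. The binomial test calls smaller differences where counts are higher, and the part of this in the share called was not tested. The Dlk1-Dio3 genes had a median log2 ratio of -0.12 and a median absolute log2 ratio of 0.455, against 0.558 for all tested genes. Their higher share called thus came without a larger typical difference. The Sfmbt2 genes had 5 of 8 called, or 62.5%, with 3 higher and 2 lower and a median of 0.13. The 5 genes had a median of 0.29, ranging from -0.63 to 2.41, and all tested genes one of 0.07. Within the 5 genes, the paternal class had a median of 0.77, with 2 genes called higher and 1 lower in replicate 2. Without Mir335 its median was 1.47. The maternal class there is Mir675 alone, which was not called.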

How the data were processed

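The files deposited by the authors hold raw read counts for each miRNA gene, made on mm10 with GENCODE M21, per the labels and file descriptions. The aligner, like the counter, is not given in the sources used here. By their values, the 3 columns count reads strand-blind, on the own strand of the gene and on the other strand. The own-strand column was used. The 4 rows for unmapped, multiply mapped, unassigned and ambiguous reads were left out of totals; assigned reads were 34.6% of replicate 2 and 37.9% of replicate 1. All 2202 gene identifiers matched the annotation.

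The genes, comparison lists and alternatives were chosen with earlier results of these data known. Genes named were the 5 genes, for each the 2 nearest in level, any gene overlapping one of the 5, the leader of each comparison list and fixed markers. Mir185, Mir153, Mir421, Mir374b and Mir15a were named after their values were seen, and Mir378a for an alternative total. Log2 ratios added 0.5 counts. Shares have Wilson and ratios exact Clopper-Pearson 95% intervals. Tests used genes with 10 or more counts in the libraries together. The binomial test was exact and two-sided, and its p-values were adjusted after Benjamini and Hochberg, with a threshold of 0.05. It was run on simulated counts that held counting error only, which cannot show how it behaves with a spread between libraries. Parent-of-origin class comes from background knowledge. Alternatives were strand-blind counts, other totals, TMM and DESeq2 factors, other minimums and pseudocounts, and edgeR's exact negative binomial test at a common dispersion. Tools were Python 3.11.15, scipy 1.17.1, R 4.3.3, edgeR 4.0.16 and DESeq2 1.42.0.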

Additional observations from a re-analysis of the deposited data

How the results depend on the processing

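No paired analysis was possible because the series has 1 group. Of 154 alternatives, 129 stayed within the SD between libraries, on their side of the threshold, or within 1.5 times for counts, and 0 turned the sign of a log2 ratio of the 5 genes. Part of these could not differ by construction, so the tally is no measure of robustness. Single replicates stay within 1 SD of the mean, and pseudocounts do not enter the binomial test. Within-library ratios without strand use the same counts of the 5 genes. With 2 libraries the SD is also wide: Mir298 at 1246 CPM, with all reads as the total, stayed within it. Each gene's values per library are given above.

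Levels moved with the total they were divided by. Counted without strand, fewer reads were assigned and the means of all 5 genes rose. They were 14.5 CPM for Mir675, 994 CPM for Mir483, 24816 CPM for Mir335, 4295 CPM for Mir298 and 881 CPM for Mir296. The shares were 3.10% for the 5 genes, 3.10% for the paternal class and 0.00145% for Mir675. With all reads in the file as the total, Mir675 had 4.24 CPM, Mir483 290 CPM, Mir335 7329 CPM, Mir298 1246 CPM and Mir296 259 CPM, and the shares were 0.913%, 0.912% and 0.000424%. Without Mir378a and Mir126a, Mir675 had 13.9 CPM, Mir483 955 CPM, Mir335 23715 CPM, Mir298 4130 CPM and Mir296 844 CPM. The shares were then 2.97%, 2.96% and 0.00139%. Without Mir122, Mir675 had 12.6 CPM, Mir483 888 CPM, Mir335 21246 CPM, Mir298 3890 CPM and Mir296 766 CPM. In that setting the log2 ratio of 0.19 for Mir296 passed the threshold. The binomial calls were then 143 higher and 109 lower in replicate 2, against 127 higher and 135 lower with all genes in the totals and 116 higher and 145 lower with DESeq2 factors. In the exact negative binomial test 2 genes were called, 0 higher and 2 lower in replicate 2, against 262 in the binomial test, and 0 of the 5 genes. Mir298 (2.41), Mir483 (1.47) and Mir335 (-0.63) lost their calls there, by the added spread between libraries. The largest shift of the median log2 ratio of the tested genes was 0.0974, with Mir122 left out of both the totals and the tested genes. The log2 ratio of Mir298 then went from 2.41 to 2.51. Depth limits Mir675 most, whose counts of 40 and 30 allow a ratio from 0.748-fold to 2.05-fold.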

Other observations

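Mir298 and Mir296 were set beside other neighbours, a comparison chosen after their values were seen. Among 55 pairs of adjacent same-strand miRNA genes within 1000 bases, each gene with a mean of at least 100 counts, the median absolute difference between the log2 ratios (replicate 2 over replicate 1) of the pair was 0.65, and 41 pairs lay within 1. Mir298 and Mir296 had a difference of 2.33, the largest of the 55. Next were Mir421 with Mir374b at 2.02 and Mir16-1 with Mir15a at 1.86. The difference does not depend on the library totals. Its cause was not tested.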
